A study of Mus musculus with 6 samples.

Results

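The class A scavenger receptors and C-type lectin receptors examined here are 10 genes, Marco, Msr1, Scara3, Scara5, Clec4d, Clec4e, Clec4n, Clec5a, Clec7a and Clec12a, taken by gene symbol from the 46603 genes of the count files. All 10 were found, and all 10 were among the 15226 genes that passed a filter on low counts. Poly(A) RNA was read in 6 libraries of enteric glial cells (EGCs), the support cells of the gut's nervous system, from C57BL/6J mice. The cells came from whole intestine of E14.5 embryos, were grown for 1 week as neurospheres (floating clusters of progenitors) with EGF and FGF, and were then plated in serum until confluent. The 3 control libraries are from untreated cells, and the 3 LPS libraries are from cells given 100 ng/ml lipopolysaccharide (LPS, a cell wall component of Gram-negative bacteria) for 12 h. The study used these cultures to ask which signals EGCs send to monocytes and macrophages (Mφs), and whether cells were sorted or Mφs removed is not given in the sources used here. These sources do not state whether the replicates came from separate litters or cultures, so a p-value here measures the spread between these libraries, which may be technical.

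Both receptor families sit on the surface of phagocytes and recognize microbes or damaged self material without the help of antibodies. Class A scavenger receptors are trimers that carry a collagen-like or coiled stalk and bind polyanionic ligands such as bacterial surface polymers and modified lipoproteins. C-type lectin receptors bind sugars, lipids or crystals through a lectin-like fold. Most activating members signal through the kinase Syk, either directly or through adaptor chains such as Fcer1g and Tyrobp, and on to a complex of Card9, Bcl10 and Malt1 that activates NF-κB. These receptors are best known from Mφs, dendritic cells and neutrophils, whereas Scara3 and Scara5 are also expressed by stromal and epithelial cells.

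The cultures held glial, mesenchymal, smooth muscle and Mφ transcripts, and lower levels of mesothelial and endothelial ones. Total counts ran from 18775316 to 23664312 per library. Levels are given as CPM, counts relative to a library size corrected for composition. Mesenchymal markers (8 of 8 tested) summed to 15124 to 16295 CPM over all 6 libraries, with Dcn (0.90) and Pdgfra (0.50) called higher and 0 lower, and with the replicate number as a term Lum (-0.75) and Thy1 (-1.28) lower too. Smooth muscle markers summed to 2266 to 2492 CPM in control and 634 to 901 CPM in LPS libraries, and all 6 tested of 7 were called lower. Mesothelial markers summed to 63.2 to 95.4 CPM in control and 34.6 to 56.4 CPM in LPS, and 1 of 5, Lrrn4 (-2.26), was called lower. Endothelial markers summed to 40.8 to 75.1 and 21.9 to 30.4 CPM, and 1 of 5 tested, Vwf (-1.93), was called lower. With the replicate number as a term, 4 mesothelial markers and Vwf were called lower, and Pecam1 (0.96) and Cdh5 (1.69) higher. Epithelial markers summed to at most 2.89 CPM in a library. Of 8 glial markers 7 were tested, and their summed level was 370.4 to 537 CPM in control and 395.2 to 407.5 CPM in LPS libraries, with S100b (-1.91) and Cdh19 (-0.66) called lower and 0 higher. All 14 Mφ markers were tested, with none at 0, and their summed level was 4374, 5706 and 13566 CPM in control replicates 1, 2 and 3 and 4149, 5374 and 21065 CPM in LPS replicates 1, 2 and 3. Replicate 3 therefore stood apart in both groups. Of the 14 markers 1, Adgre1, was called higher (159, 229.3 and 472 CPM in control, 952, 1261 and 3699.6 CPM in LPS, log2 fold change 2.78, edgeR adjusted p = 0.0452), and 0 lower. A fit that adds the replicate number (the replicate block) called 4 higher (Adgre1, Aif1, Fcgr1 and Ptprc) and 3 lower (Mrc1 at -3.92, Cx3cr1 at -3.16 and Cd68 at -0.86), so members of the list moved both ways. Among 8 dendritic cell markers Xcr1, Cd209a and Siglech had no count in any library, and Flt3 and Clec9a had at most 3 counts in each, while Itgax, Zbtb46 and Batf3 were detected. The list summed to 12.8 to 21.8 CPM in control and 7.75 to 11.2 CPM in LPS libraries, with Zbtb46 called lower (-0.62, edgeR adjusted p = 0.0265). With the replicate block Itgax was called lower as well (-1.96, adjusted p = 0.0107). Among 11 neutrophil markers Ngp and Retnlg had no count, and S100a9, Cxcr2, Ly6g, Mpo and Elane had at most 3 in each library, while the sum of the list went from 14.7 to 24.7 CPM in control to 381 to 914 CPM in LPS libraries, most of it Mmp9. All 4 tested neutrophil markers lay higher in every LPS library than in every control library, with Mmp9 (6.07, edgeR adjusted p = 0.00176) and S100a8 (4.87, 0.0205) called higher, and with Csf3r (2.58, 0.000719) and Camp (2.56, 0.00803) called with the replicate block as well. Monocyte markers (1 of 5 tested) summed to 38.6 to 64.5 CPM in control and 128.5 to 136.4 CPM in LPS libraries, nearly all of it Plac8, and the part of these cell types in the results was not tested. In such bulk samples a change in the number of cells of a type and a change in RNA per cell cannot be told apart.

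Under LPS, Marco, Clec4e and Clec4n rose, Clec7a fell, and the other 6 receptors were not called. Marco and Clec4e went from about the lowest levels of the 10 to the highest. Calls are at an adjusted p below 0.05 in the edgeR quasi-likelihood test, adjusted over all 15226 genes. Against these 3 members called higher and 1 called lower, 9.09% of all genes were called higher and 6.71% lower. The median log2 fold change of the 10 was 1.20, against -0.02 for all genes tested. For 3 members every LPS library lay above every control library and for 1 below, while 6 overlapped. Over all genes tested, 19.3% lay above and 19.4% below. Libraries with the same replicate number deviated together from their group means, but those numbered 1 and 2 also did so across numbers (r = 0.419 and 0.323). A fit with the replicate number as a block called 5 members higher and 2 lower, where it called 15.4% of all genes higher and 14.9% lower. With both libraries numbered 3 left out, the counts were 6 and 2, against 22.6% and 20.4% of all genes.

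**Figure D1:**
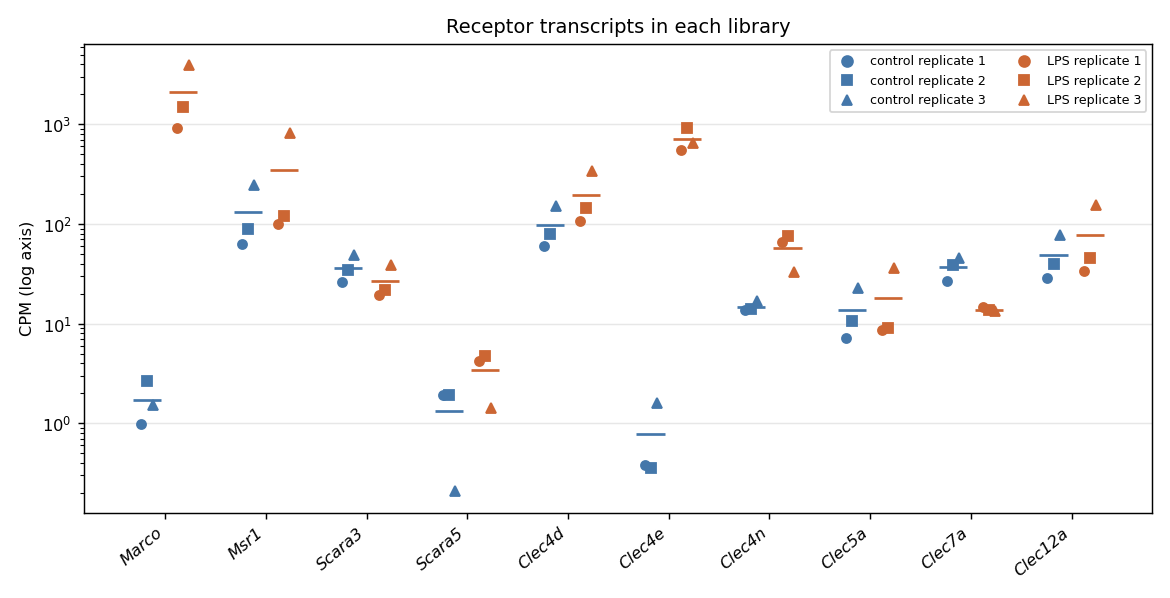
CPM of each receptor gene in each library on a log axis, with control in blue and LPS in orange, symbols for replicates 1 to 3 and bars at the group means. Marco and Clec4e separate widely between the groups, and replicate 3 is the highest control library and the highest LPS library for Msr1, Scara3, Clec4d, Clec5a and Clec12a.

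Among the class A scavenger receptors, Marco (ENSMUSG00000026390, chromosome 1, 120474538 to 120505024, minus strand, GRCm38) changed most. MARCO binds unopsonized bacteria and inhaled particles. Its level was 0.975, 2.66 and 1.53 CPM in control replicates 1, 2 and 3, from 23, 60 and 37 counts, and 921, 1509.5 and 3918 CPM in LPS replicates 1, 2 and 3. The groups lay far apart, and LPS replicate 3 held by far the most. This is a log2 fold change of 10.26 (SE 0.88, 95% interval 8.09 to 12.43, edgeR adjusted p = 0.00212), with an increase in 3 of 3 replicate numbers. Marco was called in all 15 alternative fits, with adjusted p-values up to 0.0183 and estimates from 9.42 to 10.72. Without LPS replicate 3 the estimate was 9.46.

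Msr1 (ENSMUSG00000025044, chromosome 8, 39581685 to 39642673, minus strand) encodes the scavenger receptor that takes up modified low-density lipoprotein. It was at 62.5, 89.1 and 246.8 CPM in control replicates 1, 2 and 3 and at 100.4, 119.5 and 819 CPM in LPS replicates 1, 2 and 3. The groups overlapped, because control replicate 3 exceeded LPS replicates 1 and 2. A log2 fold change of 1.38 was not called (95% interval -1.02 to 3.78, edgeR adjusted p = 0.384), nor was the block estimate of 0.95 (interval 0.22 to 1.68, adjusted p = 0.0635). Without LPS replicate 3 the sign turned, to -0.28, whereas with both libraries numbered 3 left out Msr1 was called higher at 0.56 (adjusted p = 0.0354).

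Scara3 and Scara5 were at low to moderate levels and overlapped between the groups. Scara3 (ENSMUSG00000034463, chromosome 14, 65919394 to 65953935, minus strand), known as a gene that responds to oxidative stress, was at 26.3, 34.3 and 48.4 CPM in control replicates 1, 2 and 3 and at 19.3, 21.5 and 38.6 CPM in LPS replicates 1, 2 and 3. In each pair of equal number the LPS library was lower, and replicate 3 was the highest of each group. The log2 fold change of -0.46 was not called (95% interval -1.30 to 0.38, edgeR adjusted p = 0.412), but fitted with the block it was called at -0.48 (SE 0.09, adjusted p = 0.0241). Scara5 (ENSMUSG00000022032, chromosome 14, 65666403 to 65764826, plus strand), a receptor for ferritin, was at 1.91, 1.90 and 0.207 CPM in control replicates 1, 2 and 3 and at 4.20, 4.74 and 1.41 CPM in LPS replicates 1, 2 and 3. Replicate 3 was the lowest of each group, opposite to Msr1. Its log2 fold change of 1.36 was not called (interval -0.64 to 3.37, adjusted p = 0.308), and with the replicate block it was called at 1.52 (SE 0.34, adjusted p = 0.0331).

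Of the C-type lectin receptors, Clec4e (ENSMUSG00000030142, chromosome 6, 123281789 to 123289870, minus strand) changed most. It encodes Mincle, which recognizes mycobacterial glycolipids and a protein released by dying cells. Clec4e was at 0.381, 0.354 and 1.61 CPM in control replicates 1, 2 and 3, from 9, 8 and 39 counts, and at 554, 912 and 654 CPM in LPS replicates 1, 2 and 3. Unlike Marco, it was not highest in LPS replicate 3. Clec4e had a log2 fold change of 9.80 (SE 0.69, 95% interval 8.11 to 11.49, edgeR adjusted p = 0.00108), and was called in each of its 14 alternative fits, with adjusted p-values up to 0.0114 and estimates from 9.46 to 10.96. Without control replicate 3, the highest control library, the estimate was 10.90.

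Clec4n and Clec4d lie next to Clec4e. Clec4n (ENSMUSG00000023349, chromosome 6, 123229843 to 123247021, plus strand) encodes Dectin-2, a receptor for fungal mannans. It was at 13.7, 13.9 and 16.7 CPM in control replicates 1, 2 and 3 and at 65.4, 75.2 and 33.0 CPM in LPS replicates 1, 2 and 3. The groups did not overlap, and LPS replicate 3 was the lowest of its group. Its log2 fold change was 1.97 (SE 0.32, 95% interval 1.19 to 2.75, edgeR adjusted p = 0.0146). The call was lost without control replicate 1 (adjusted p = 0.0719), control replicate 2 (0.0835), LPS replicate 1 (0.0562) or LPS replicate 2 (0.0538).

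Clec4d (ENSMUSG00000030144, chromosome 6, 123262111 to 123275265, plus strand) encodes MCL, which pairs with Mincle. It was at 60.1, 79.95 and 149.8 CPM in control replicates 1, 2 and 3 and at 107.3, 143.9 and 341.3 CPM in LPS replicates 1, 2 and 3. Control replicate 3 lay above LPS replicates 1 and 2, so the groups overlapped, yet each LPS library exceeded the control library of its number. Paired log2 ratios were 0.83, 0.84 and 1.19. The log2 fold change of 1.03 was not called (95% interval -0.29 to 2.36, edgeR adjusted p = 0.249), and with the replicate block it was called at 0.96 (SE 0.09, adjusted p = 0.00493). Leaving out LPS replicate 3 lowered the estimate without the block to 0.38. The interval of Clec4d ended below those of Clec4e and Marco.

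Clec7a (ENSMUSG00000079293, chromosome 6, 129461591 to 129472779, minus strand) was the 1 receptor called lower. It encodes Dectin-1, the receptor for fungal β-glucan, and GENCODE M21 lists it as a polymorphic pseudogene. Its level was 26.6, 38.4 and 45.6 CPM in control replicates 1, 2 and 3 and 14.7, 13.5 and 13.2 CPM in LPS replicates 1, 2 and 3. The LPS libraries lay close together and below all controls, also in replicate 3, where Mφ markers were highest. Clec7a had a log2 fold change of -1.42 (SE 0.21, 95% interval -1.92 to -0.91, edgeR adjusted p = 0.0113). The call was lost without control replicate 2 (adjusted p = 0.0639) or LPS replicate 2 (0.0598).

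Clec5a and Clec12a overlapped between the groups. Clec5a (ENSMUSG00000029915, chromosome 6, 40574894 to 40585821, minus strand), an activating receptor that couples to Tyrobp, was at 7.12, 10.7 and 22.8 CPM in control replicates 1, 2 and 3 and at 8.65, 8.97 and 36.1 CPM in LPS replicates 1, 2 and 3. Clec12a (ENSMUSG00000053063, chromosome 6, 129342691 to 129365303, plus strand), an inhibitory receptor for uric acid crystals, was at 28.6, 39.6 and 77.4 CPM in control replicates 1, 2 and 3 and at 33.9, 45.2 and 155.6 CPM in LPS replicates 1, 2 and 3. For both genes replicate 3 was the highest of each group. The log2 fold change was 0.40 for Clec5a (95% interval -1.34 to 2.15, edgeR adjusted p = 0.743) and 0.69 for Clec12a (interval -0.97 to 2.34, adjusted p = 0.535). Neither was called with the replicate block (adjusted p = 0.38 and 0.114), and without LPS replicate 3 both signs turned, to -0.62 and -0.30.

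**Figure D2:**
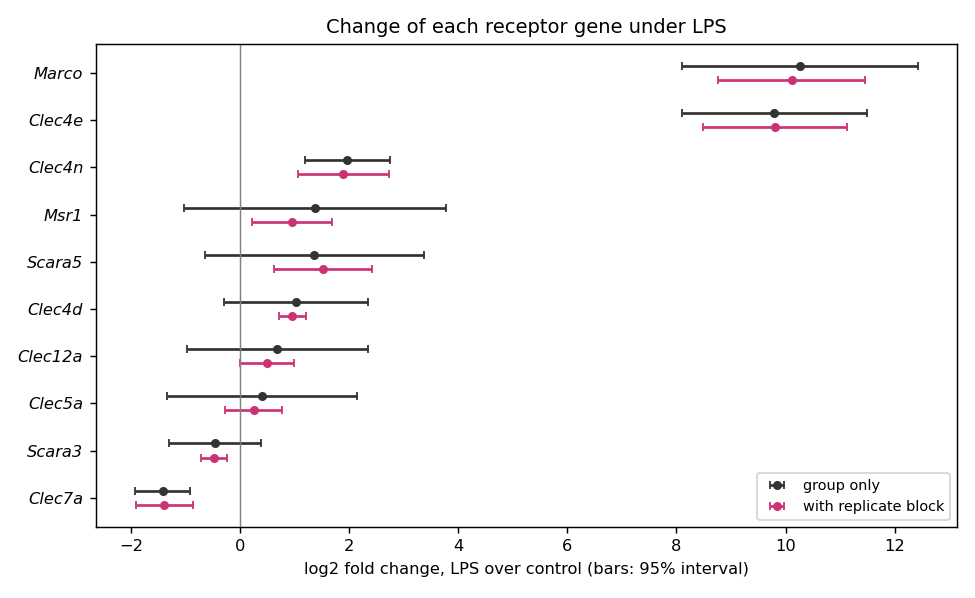
Log2 fold change of each receptor gene, LPS over control, with 95% intervals, from the fit with the group alone (grey) and with the replicate number as a block (pink). The intervals of Marco, Clec4e, Clec4n and Clec7a exclude 0 in both fits, and that of Clec4d narrows from -0.29 to 2.36 without the block to 0.71 to 1.21 with it.

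Promoters are shown for the members that changed most, Marco and Clec4e, for Clec4d as the neighbour of Clec4e, and for Clec7a, the gene that fell. RefSeq (GRCm38.p6) gave a promoter for 6 of the 10 members, 250 bases before to 50 bases after the start site, here 5′ to 3′ on the strand of the gene. They lie at chr1:120504975-120505274 (Marco, minus), chr6:123289822-123290121 (Clec4e, minus), chr6:123261857-123262156 (Clec4d, plus) and chr6:129472730-129473029 (Clec7a, minus). Capitals mark a match, on either strand, to PU.1 (GAGGAAG), AP-1 (TGANTCA), C/EBP (TTGCNNAA), the interferon-stimulated response element ISRE (TTTCNNTTTC) or the κB consensus.
Marco: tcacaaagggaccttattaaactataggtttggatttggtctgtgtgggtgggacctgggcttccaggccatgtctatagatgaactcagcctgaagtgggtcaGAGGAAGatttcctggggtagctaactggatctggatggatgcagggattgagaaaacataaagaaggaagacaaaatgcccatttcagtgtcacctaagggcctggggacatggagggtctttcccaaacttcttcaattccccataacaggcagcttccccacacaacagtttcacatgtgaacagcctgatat
Clec4e: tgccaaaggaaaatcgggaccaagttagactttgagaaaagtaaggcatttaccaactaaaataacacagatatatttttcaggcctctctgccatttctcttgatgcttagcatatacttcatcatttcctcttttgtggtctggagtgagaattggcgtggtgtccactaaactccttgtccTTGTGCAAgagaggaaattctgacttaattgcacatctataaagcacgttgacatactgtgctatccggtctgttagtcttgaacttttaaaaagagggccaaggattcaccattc
Clec4d: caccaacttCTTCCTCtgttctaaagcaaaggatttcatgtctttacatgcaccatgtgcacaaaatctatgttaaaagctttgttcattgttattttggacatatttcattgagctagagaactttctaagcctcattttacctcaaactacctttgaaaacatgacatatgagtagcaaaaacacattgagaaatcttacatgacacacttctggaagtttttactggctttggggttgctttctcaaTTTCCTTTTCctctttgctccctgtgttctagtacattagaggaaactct
Clec7a: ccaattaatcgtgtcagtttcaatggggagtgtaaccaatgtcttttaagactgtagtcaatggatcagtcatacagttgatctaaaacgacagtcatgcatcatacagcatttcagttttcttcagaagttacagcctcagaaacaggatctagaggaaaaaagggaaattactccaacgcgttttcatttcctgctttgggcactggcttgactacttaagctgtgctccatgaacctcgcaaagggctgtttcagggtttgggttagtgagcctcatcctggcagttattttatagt

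In these windows the Marco promoter held a PU.1 match at -146 to -140 from the start site, Clec4e a C/EBP match at -66 to -59, and Clec4d a PU.1 match at -241 to -235 and an ISRE match at 1 to 10. The Clec7a window held 0 matches to the 5 patterns. Of the others, Clec5a held 2 PU.1 matches, and Clec12a held 1 each to PU.1, AP-1 and C/EBP. None of the 6 held a κB match. Over 32851 promoters of this length, 13.6% held the PU.1 pattern, 10.8% C/EBP, 8.46% κB, 7.81% AP-1 and 3.44% ISRE. A match describes letters and not binding.

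Levels of different genes were compared per kilobase of exon. In control libraries Clec4d was the highest at 60.4 ± 29.5 CPM per kb (SD, n = 3). Msr1 (20.9 ± 15.7), Clec7a (13.98 ± 3.64), Clec4n (10.4 ± 1.16), Scara3 (10.1 ± 3.11) and Clec12a (8.78 ± 4.63) followed, and each of these overlapped with its neighbour in the order over the 3 libraries. Within single control libraries, Clec4d exceeded Msr1, Clec7a exceeded Clec4n and Clec12a exceeded Clec5a in 3 of 3. Clec4n exceeded Scara3, and Scara3 exceeded Clec12a, in 2 of 3, and Msr1 exceeded Clec7a in only 1 of 3. Clec5a stood at 3.52 ± 2.14, clear of Marco at 0.893 ± 0.445, which was itself clear of Scara5 (0.220 ± 0.161) and Clec4e (0.158 ± 0.145). In LPS libraries Marco led at 1099 ± 825 CPM per kb (SD, n = 3), with no overlap with Clec4e at 142.3 ± 37.2. Clec4e and Clec4d (123.5 ± 78.7) overlapped, as did Clec4d with Msr1 (54.6 ± 64.6), Msr1 with Clec4n (40.7 ± 15.6) and so on through Clec12a (14.1 ± 12.2), Scara3 (7.36 ± 2.94), Clec7a (5.24 ± 0.287) and Clec5a (4.66 ± 4.11). Scara5 was the lowest at 0.566 ± 0.293. Within single LPS libraries, Clec4d exceeded Msr1 and Clec12a exceeded Scara3 in 3 of 3, whereas Msr1 exceeded Clec4n in only 1 of 3. The other overlapping neighbours kept their order in 2 of 3.

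Because Mφ transcripts differed between libraries, each receptor was also set against the summed Mφ markers of its own library, as CPM per 1000 CPM of that sum. On this scale Clec12a was at 6.55, 6.94 and 5.71 in control replicates 1, 2 and 3 and at 8.16, 8.41 and 7.38 in LPS replicates 1, 2 and 3. Clec5a was at 1.63, 1.88 and 1.68 in control and at 2.08, 1.67 and 1.71 in LPS. Both were thus far more even than as CPM, and so was Msr1, at 14.3, 15.6 and 18.2 in control and 24.2, 22.2 and 38.9 in LPS. Clec4d was at 13.74, 14.01 and 11.04 in control and 25.9, 26.8 and 16.2 in LPS, so that its groups, which overlapped as CPM, did not overlap here. The groups of Clec12a and Msr1 did not overlap on this scale either.

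Marco was at 0.223, 0.465 and 0.113 per 1000 in control replicates 1, 2 and 3 and at 221.9, 280.9 and 186 in LPS replicates 1, 2 and 3, so LPS replicate 3 no longer exceeded the others. Clec4e was at 0.0872, 0.0621 and 0.119 in control and at 133.6, 169.7 and 31.0 in LPS. Their separation between groups was therefore as plain against the Mφ markers as in CPM. Clec4n was at 3.13, 2.44 and 1.23 in control and at 15.8, 14 and 1.57 in LPS, so LPS replicate 3 fell into the control range. Clec7a was at 6.08, 6.73 and 3.36 in control and at 3.54, 2.52 and 0.629 in LPS, where LPS replicate 1 lay above control replicate 3. Scara3 and Scara5 were lowest in replicate 3 of each group on this scale, Scara5 at 0.0152 and 0.0671 in the control and LPS library. The part of Mφ number in the changes of Msr1, Clec4d, Clec5a and Clec12a was not tested. The ratios were recomputed without 2 of the 14 markers, and not without the others, several of which also differed between the groups. Lyz2 made up much of the sum, and Adgre1 was itself called higher in LPS. Without Lyz2 the groups overlapped for Clec12a, at 13.9 to 19.3 in control and 16.2 to 19.6 in LPS, and for Clec4d, at 26.8 to 40.4 and 35.6 to 62.4. Without Adgre1 the groups overlapped for none of these 4 receptors: Clec12a was at 5.91 to 7.23 in control and 8.96 to 10.99 in LPS, Clec5a at 1.69 to 1.96 and 2.08 to 2.71, Clec4d at 11.4 to 14.6 and 19.7 to 34.98, and Msr1 at 14.8 to 18.8 and 29.1 to 47.2. Without both markers they did not overlap either, with Clec12a at 15.1 to 21.6 in control and 26.4 to 43.3 in LPS. The choice of markers left out was made after seeing the data.

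**Figure D3:**
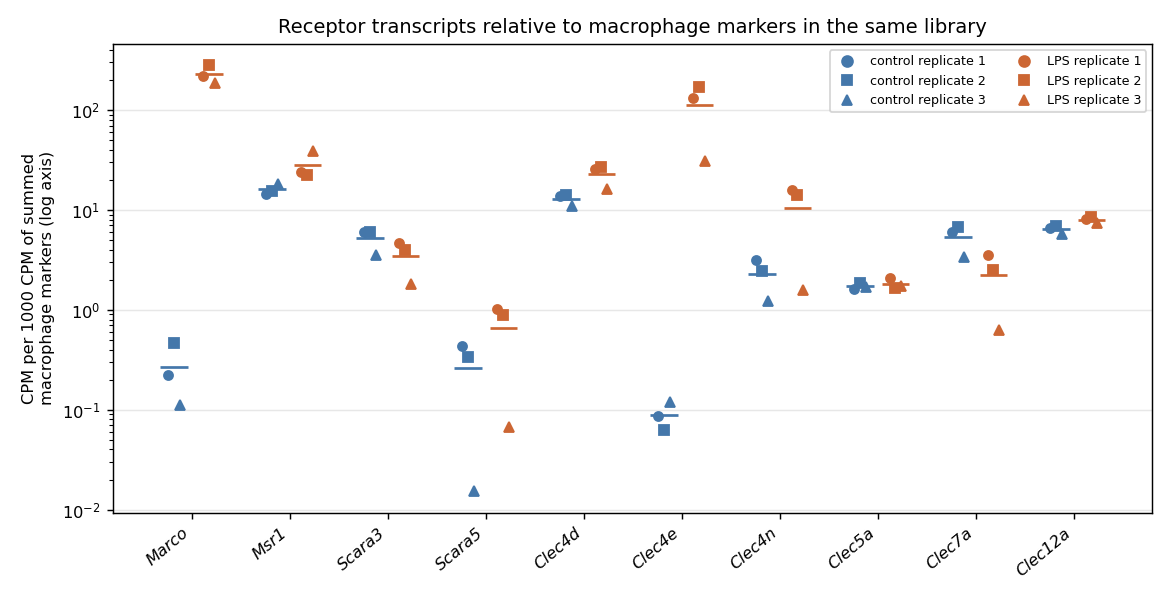
CPM of each receptor gene per 1000 CPM of summed Mφ markers in the same library, on a log axis, with control in blue, LPS in orange, symbols for replicates 1 to 3 and bars at the group means. With all 14 markers in the sum, Clec5a lies between 1.63 and 2.08 in all 6 libraries, while Marco and Clec4e keep their distance between the groups.

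Of 20 adaptor and signalling genes that lie downstream of C-type lectin receptors, all tested, 2 were called higher and 0 lower, close to the 9.09% called higher over all genes, with 6.71% lower. Their median log2 fold change was 0.79 against -0.02 for all genes. The 2 were Malt1 (8.31, 9.87 and 16.4 CPM in control replicates 1, 2 and 3, then 44.0, 65.5 and 35.1 CPM in LPS, log2 fold change 2.06, edgeR adjusted p = 0.0164) and Bcl10 (0.71, adjusted p = 0.0126), partners in the complex below Card9. Both calls were lost without control replicate 1 or 2 or without LPS replicate 1 or 2, and each of these 4 fits called 0 of the 20. Card9 itself was at 5.97, 8.28 and 21.4 CPM in control and 4.94, 7.08 and 26.5 CPM in LPS and was not called (0.11, adjusted p = 0.941).

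The adaptor chains were called in opposite directions, though not without the replicate block. Fcer1g, the chain used by Mincle and Dectin-2, was at 91.9, 132.4 and 277.7 CPM in control replicates 1, 2 and 3 and 199.2, 288.2 and 684.6 CPM in LPS replicates 1, 2 and 3 (log2 fold change 1.22, edgeR adjusted p = 0.223). Tyrobp, the chain used by Clec5a, was at 114.1, 161.2 and 327.5 CPM in control and 66.3, 89.6 and 290.9 CPM in LPS (-0.43, adjusted p = 0.706). Both ranges overlapped between groups, but within each replicate number Fcer1g was higher and Tyrobp lower in LPS. Syk was at 55.5, 68.5 and 131.3 CPM in control and 130.1, 171.7 and 402.4 CPM in LPS (1.46, adjusted p = 0.121). Fitted with the block all 3 were called, Fcer1g at 1.18 (adjusted p = 0.00137), Syk at 1.39 (0.0021) and Tyrobp at -0.60 (0.0469), and 12 of the 20 genes were called higher and 1 lower, where the block called 15.4% of all genes higher and 14.9% lower.

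**Figure D4:**
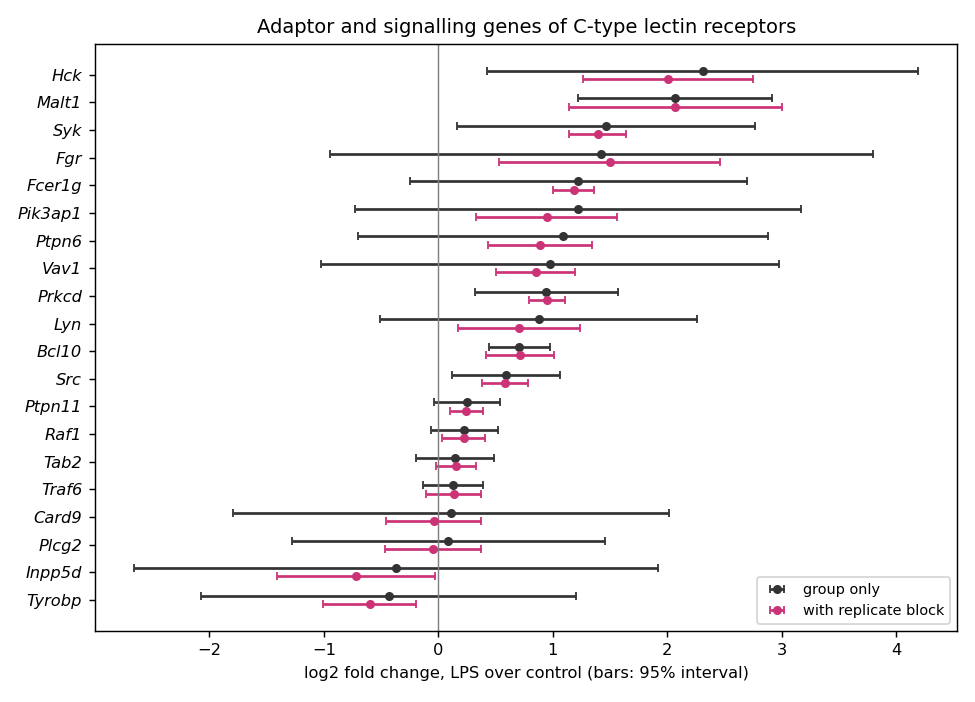
Log2 fold change, LPS over control, of 20 adaptor and signalling genes of C-type lectin receptors with 95% intervals, from the fit with the group alone (grey) and with the replicate block (pink). The interval of Fcer1g narrows from -0.25 to 2.70 without the block to 1.00 to 1.36 with it.

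The receptors were compared with the rest of their families. Of 20 other scavenger receptor genes 17 were tested, with 3 called higher and 4 lower, against 9.09% and 6.71% of all genes, and a median log2 fold change of -0.57. Cxcl16, a membrane-bound chemokine that binds oxidized lipoprotein (2.90, edgeR adjusted p = 0.00894), and Scarf1, an endothelial scavenger receptor (2.08, 0.0362), rose, and the secreted Cd5l (-2.77, 0.0168) and the fatty acid receptor Cd36 (-1.19, 0.0214) fell. Colec12, the remaining class A receptor, was at 496.8, 554.1 and 681.2 CPM in control replicates 1, 2 and 3 and 490.7, 475.8 and 442.1 CPM in LPS replicates 1, 2 and 3, and was not called (-0.30, adjusted p = 0.192). Among those not called, Cd68, an endosomal protein of phagocytes, was the most abundant per kilobase, at 331.6 CPM per kb in control and 186.7 in LPS (-0.83, adjusted p = 0.373, and with the block -0.86, 0.00313). Lrp1, an endocytic receptor, was the highest in CPM, which takes no account of length (-0.59, adjusted p = 0.0531, and with the block -0.57, 0.0314). The block fit called 3 higher and 9 lower, against 15.4% and 14.9% of all genes. Leaving out control replicate 1 or 2, or LPS replicate 1 or 2, gave 0 to 2 higher and 0 or 1 lower, and leaving out LPS replicate 3 gave 3 and 7.

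Of 38 other C-type lectin genes 18 were tested, while 8 had no count in any library and 8 had at most 3 in each. Of the 18, 4 were called higher and 3 lower, against 9.09% and 6.71% of all genes, with a median log2 fold change of 0.09. Cd69, an activation marker of leukocytes, was at 0.127, 0 and 0.165 CPM in control replicates 1, 2 and 3 and at 12.3, 16.6 and 29.6 CPM in LPS replicates 1, 2 and 3 (edgeR adjusted p = 0.00263). Clec4a1, a gene of the same cluster as Clec4e, rose by 4.66 on the log2 scale (adjusted p = 0.0261). Clec1a, at 0.909 to 1.57 CPM in control, had at most 3 counts in each LPS library (adjusted p = 0.0207), and Clec11a fell by 1.39 (0.0495). Mrc1, the most abundant gene not called, was at 197, 331.4 and 752.5 CPM in control and 9.29, 10.4 and 131.3 CPM in LPS (-3.08, adjusted p = 0.145), and with the block it was called (-3.92, 0.0124). In that fit 7 were called higher and 7 lower, against 15.4% and 14.9% of all genes. The counts were 2 and 0 when either control replicate 1 or 2, or LPS replicate 2, was left out, and without LPS replicate 3 they were 5 and 6.

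Along chromosome 6, lectin-like genes lie in clusters that hold 5 of the 6 lectin receptors studied here. Of 37 such genes counted, from Clec4a1 to Klra5, 7 had no count in any library and 13 reached 0.5 CPM in some library. In the first cluster Clec4a1, Clec4a3, Clec4a2, Clec4n, Clec4d and Clec4e were expressed, in this order. Clec4a1 was at 2.92, 5.05 and 8.39 CPM in control replicates 1, 2 and 3 and 43.2, 67.7 and 303.5 CPM in LPS replicates 1, 2 and 3, while Clec4a4, Clec4b1 and Clec4b2 had at most 2 counts each in a library. Clec4e rose more than each of its expressed neighbours by point estimate, with 9.80 against 4.66 for Clec4a1 and 1.97 for Clec4n. Not called were Clec4a2 (3.03, edgeR adjusted p = 0.0992), Clec4a3 (2.28, 0.203) and Clec4d (1.03, 0.249). With the block Clec4a2 (2.61, adjusted p = 0.0149) and Clec4d (0.96, 0.00493) were called. In the second cluster Clec7a fell by 1.42, while Olr1, the next lectin-like gene, rose by 1.18 (edgeR adjusted p = 0.0189), from 120.9 to 196.6 CPM in control to 303.2 to 365.2 CPM in LPS. Clec4a1, Clec4a2 and Clec4a3 are related copies, and reads could be split among them.

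**Figure D5:**
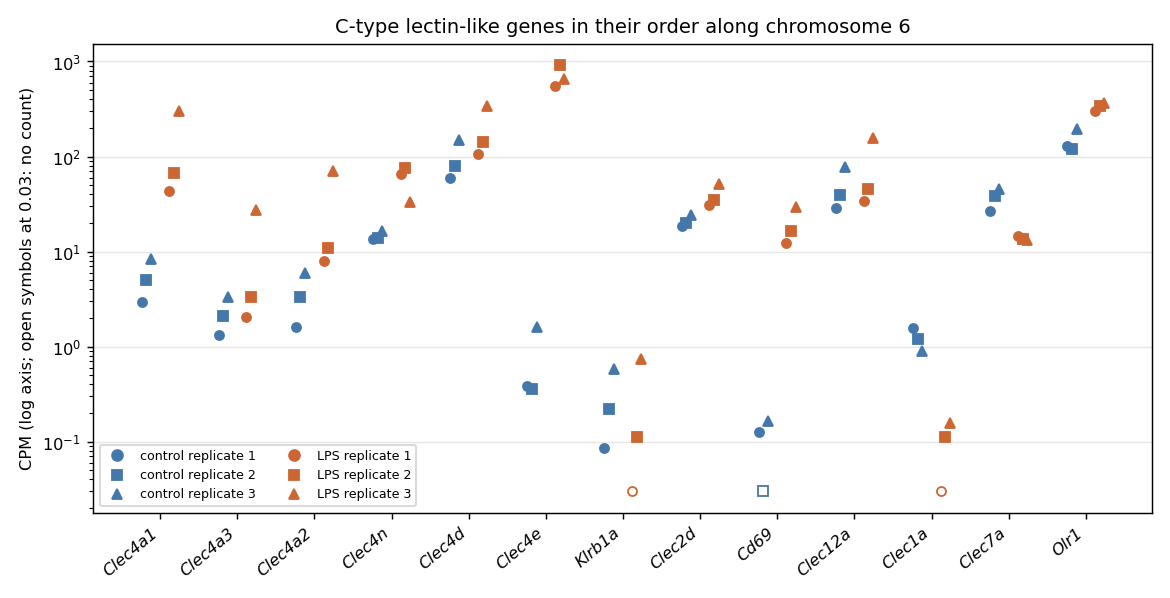
CPM of the 13 lectin-like genes of chromosome 6 that reached 0.5 CPM in some library, in their order along the chromosome (spacing not to scale), on a log axis, with control in blue, LPS in orange and symbols for replicates 1 to 3. Clec4e rises from 0.354 to 1.61 CPM to 554 to 912 CPM, and Clec7a and Olr1, side by side, move in opposite directions.

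The genes whose log2 CPM followed each receptor most closely over the 6 libraries were listed by Pearson's r, as a description of libraries that share treatment and Mφ content. For Marco they were Mocs1 (r = 0.999), Usp18 (0.999) and Ifih1 (0.998). For Clec4e they were Csrnp1, Slc2a6 and Gch1 (0.999 each), for Clec4n Xpnpep1, Irx1 and Alkbh5 (0.999 or more), and for Clec7a Sat1 (0.996), Hadh (0.994) and Prkrir (0.992). Those of Clec4d were Pla2g7, Tmed7 and Tmsb4x (0.998 each), of Msr1 Tifa, Gm5150 and Themis2 (0.998 to 0.999), and of Clec12a Rps6ka1, Cdc42se2 and Fermt3 (0.999 each). Clec5a went with U2af2, Gmip and Rnf130 (0.995 each), Scara3 with Lmo2, Cln6 and Gm21975 (0.996 to 0.999), and Scara5 with Mab21l3, Fscn1 and 5330434G04Rik (0.994 to 0.996).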

How the data were processed

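The authors deposited raw counts for each gene in 6 single-library files, made, per the labels and series text, by trimming (cutadapt 1.15), removing contaminants (Bowtie2 2.3.3.1), alignment to GRCm38 with STAR 2.5.2b and filtering with SAMtools 1.5. featureCounts 1.5.3 is named in the submitters' processing notes, with no setting for strand or multi-mapped reads. The library kit was stranded. A joined table of the same 6 libraries was not used. No gene overlaps a member in GENCODE M21, which gave places and exon lengths. Words of 50 bases shared with another gene made up 0.686% of Clec4n, 0.457% of Clec12a and 0 of the other members.

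Genes were filtered with filterByExpr (minimum count 10, minimum total 15), scaled with TMM factors and tested with the two-sided quasi-likelihood F-test of edgeR 4.0.16 (R 4.3.3), with no term but the group, and p-values were adjusted over 15226 genes by the Benjamini-Hochberg method. The SE is the log2 fold change over √F. The replicate numbers were treated as pairs because deviations from the group means correlated over genes at r = 0.513, 0.334 and 0.613 for numbers 1, 2 and 3, each above 0.1, while the labels do not say what a number stands for. Control replicate 1 with LPS replicate 2 (0.419) and control replicate 2 with LPS replicate 1 (0.323) passed this limit too. Paired log2 ratios used CPM + 0.5. The test was checked on simulated counts. Likeness between genes used log2 CPM with a prior count of 2.

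The members, lists, tests and alternatives were chosen with earlier results of these data known. Alternatives were other scalings and filters, DESeq2 1.42.0, limma-voom (limma 3.58.1), the replicate block, each library left out, and, chosen after seeing the data, both libraries numbered 3 left out and sums of Mφ markers without Lyz2, Adgre1 or both. Genes named beside the members were the called genes of each list with the 4 largest changes, its most abundant gene not called (by CPM, or per kilobase where this differs), Fcer1g, Tyrobp, Syk, Card9, genes a result turns on, and the 3 genes most like each member. Colec12, Olr1, Clec4a2 and the other genes of the chromosome 6 clusters were added after their values were seen.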

Additional observations from a re-analysis of the deposited data

How the results depend on the processing

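Marco and Clec4e were called higher in every alternative that tested them, and over all members and alternatives 132 fits kept direction and call, 6 lost a call, 7 gained one and 3 turned in sign. The 3 were Msr1, Clec5a and Clec12a without LPS replicate 3: leaving out 1 library at a time gave log2 fold changes of -0.28 to 2.20, -0.62 to 1.02 and -0.30 to 1.21. Clec4e and Scara5 could not be tested when 10 counts were required in every library. With both libraries numbered 3 left out, the estimates of Msr1, Clec5a and Clec12a were 0.56, 0.008 and 0.23. The cause of the lost and gained calls and of the turned signs was not tested.

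With the replicate block, members called higher and lower were 5 and 2, signalling partners 12 and 1, other C-type lectins 7 and 7, and other scavenger receptors called lower 9. With both libraries numbered 3 left out (chosen after seeing the data), these were 6 and 2, 10 and 2, 8 and 9, and 10. The numbers are no sure pairing, since LPS replicate 2 deviated more like control replicate 1 (r = 0.419) than like control replicate 2 (r = 0.334). DESeq2 called 6 signalling partners and 7 other lectins higher and 7 other scavenger receptors lower. Scaling by library size alone also called 7 of the latter lower, and it moved the median of all genes to -0.18 and the calls to 986 higher and 2054 lower, from 1384 and 1022 (upper-quartile scaling: median -0.12, 1050 and 1589). limma-voom called 2 other lectins higher. Leaving out 1 library at a time gave 0 to 1 members lower, 0 to 3 signalling partners higher, 0 to 3 other scavenger receptors higher and 0 to 7 lower, and 2 to 5 other lectins higher and 0 to 6 lower. Over all genes these fits called 379 to 1964 higher and 112 to 1426 lower. The block changed no member call other than those of Scara3, Scara5 and Clec4d. Depth limits the control levels of Clec4e (8 to 39 counts) and Scara5 (5 to 45 counts).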
